A study of Mus musculus with 12 samples.

Results

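The 45 genes described here are interferon-stimulated genes, which cells switch on when interferon reaches their receptors, measured in bone marrow LSK cells of mice with and without the transcription factor Yy1. The genes were chosen by name and matched by gene identifier in the tables of all 12 libraries. All 45 were found among the 55487 genes listed, and all 45 were among the 16649 genes that passed the filter on low counts. LSK cells lack lineage markers and are positive for Sca1 and c-Kit, and this sorted fraction holds the haematopoietic stem cells and early progenitors.

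The groups were 4 libraries of genotype Yy1-/-, 4 of genotype Yy1-/- Smc3+/- and 4 of genotype Yy1+/+, the wild-type control. Yy1 encodes a zinc finger factor that both activates and represses genes. The cohesin complex, which holds DNA in loops, needs Smc3 as part of its ring. The study's title concerns control of Smc3 by Yy1 in stem cells. The promoter that drove any recombinase, any inducing agent, and the age, sex and strain of the mice are not given in the sources used here, nor is it stated whether the controls carried a recombinase or were treated, or whether each library came from a separate animal. The p-values therefore measure the spread between these libraries, which may in part be technical. Replicates are numbered 1 to 4 within each genotype for naming alone.

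Type I interferons bind a receptor made of Ifnar1 and Ifnar2, the kinases Jak1 and Tyk2 then act through a complex that holds Stat2 and Irf9 on the interferon-stimulated response element of target promoters. Interferon gamma acts through Ifngr1 and Ifngr2 and the gamma activated site. In blood, stem cells answer interferon by leaving quiescence, Ly6a, the gene for the Sca1 of this sort, is itself induced by interferon, and the Mx1-Cre transgene widely used in haematopoietic deletion is switched on with an interferon inducer.

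Each library held between 38671354 and 69086104 summed expected counts. Levels are given as CPM, the count of a gene divided by the size of its library after scaling between libraries. Yy1 had 0.407, 0.996, 5.01 and 12.2 CPM in Yy1-/- libraries, 0.772, 0.795, 4.45 and 0.944 CPM in Yy1-/- Smc3+/- libraries and 33.9, 41.3, 34.2 and 34 CPM in Yy1+/+ libraries. Both deletion genotypes lay below every Yy1+/+ library, and within them Yy1-/- replicates 3 and 4 and Yy1-/- Smc3+/- replicate 3 kept the most Yy1 reads. The Smc3 label was not visible in the mRNA, since Smc3 averaged 301 ± 38.1 CPM in Yy1-/- Smc3+/-, 255 ± 45.2 CPM in Yy1-/- and 177 ± 25.2 CPM in Yy1+/+ libraries (SD, n = 4 each). Of the sort markers, Ly6a did not pass the test in either deletion genotype, and Kit was lower in both (log2 fold changes of -2.12 and -1.65 against Yy1+/+, edgeR adjusted p = 0.00101 and 0.00455).

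Yy1-/- replicates 1 and 2 stood apart from replicates 3 and 4, and this touched most of the results below. Both lay above both of the others for 38 of the 45 members, which was so for 17.4% of all tested genes. The mean of replicates 1 and 2 divided by the mean of replicates 3 and 4 had a median of 1.96 over the members and 0.98 over all tested genes. Genes of monocytes, macrophages and dendritic cells were high in the same libraries. The summed level of a list of 15 such markers was 8305, 5542, 761 and 1056 CPM in Yy1-/- replicates 1 to 4, between 937 and 1873 CPM in Yy1-/- Smc3+/- libraries and between 542 and 1218 CPM in Yy1+/+ libraries. Of these 15 markers 12 were called higher in Yy1-/- and 6 in Yy1-/- Smc3+/- against Yy1+/+, where 14.5% and 11.3% of all tested genes were. None of the markers was at 0 in any library. The 3 with the highest mean were Lyz2, Ctss and Csf1r, a lysozyme, a lysosomal protease and the receptor for macrophage growth factor. Erythroid genes split the opposite way, and a list of 12 summed to 193, 238, 1025 and 599 CPM in Yy1-/- replicates 1 to 4, between 237 and 645 CPM in Yy1-/- Smc3+/- libraries and between 1745 and 2643 CPM in Yy1+/+ libraries. A list of 14 genes of T cells and natural killer cells summed to 70.7, 82.3, 174 and 259 CPM in Yy1-/- replicates 1 to 4, between 115 and 311 CPM in Yy1-/- Smc3+/- libraries and between 187 and 396 CPM in Yy1+/+ libraries. Gene by gene the picture differed from this sum. Of 13 tested genes of this list, 5 were called higher and 1 lower in Yy1-/-, where 14.5% and 15.6% of all tested genes were. The median log2 difference of the list from the Yy1+/+ mean was 0.96, 1.18, 1.18 and 1.41 in Yy1-/- replicates 1 to 4. The part that any of these cells had in the values below was not tested, and in bulk RNA a change in the number of cells of a type and a change in RNA per cell cannot be told apart.

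More interferon-stimulated genes were called higher than lower in Yy1-/- cells, with the members' median high in replicates 1 and 2 and near 0 in replicates 3 and 4. Against Yy1+/+, 15 of the 45 members were called higher, where 14.5% of all tested genes were, and 2 were called lower, where 15.6% of all tested genes were. A call is a Benjamini-Hochberg adjusted p under 0.05 in edgeR over all tested genes. The median log2 fold change was 0.47 over the members and 0.0054 over all tested genes, and 36 of the 45 values were above 0. Against the same controls, Yy1-/- Smc3+/- cells had 1 member called higher, where 11.3% of all tested genes were, and 5 lower, where 13.4% were. Their median was 0.092, against 0.022 over all tested genes, with 24 values above 0 and 21 below. The members called in the same direction in both genotypes were Ifi27l2a, higher, and Ifih1 and Ifi44, lower. Both comparisons use the same Yy1+/+ libraries. All Yy1-/- libraries lay above all Yy1+/+ libraries for 9 members, and for 13.4% of all tested genes. They lay below for 1 member, and for 17.5% of all tested genes. In Yy1-/- Smc3+/- this was so for 4 members above and 6 below, and for 14.7% and 17.6% of all tested genes.

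Single libraries moved these counts. The shares of all tested genes above are those of the fit with all 12 libraries, and the shares in the refits below are not given here. The counts below therefore show how the calls moved and not whether the members stood out from other genes. Without Yy1-/- replicate 1, 7 members were called higher in Yy1-/-, and without Yy1+/+ replicate 1, 9 were. One member in place of 2 was called lower without Yy1-/- replicate 3, without Yy1-/- replicate 4, or without Yy1+/+ replicate 1, 3 or 4, since Ifih1 then missed the threshold. Without Yy1-/- replicates 1 and 2 together, 5 members were called higher and 5 lower. The median was then -0.071 over the members, close to the -0.067 over all genes tested in that fit. Without the 3 libraries with more Yy1 reads, Yy1-/- was left with replicates 1 and 2 alone, the libraries already high for most members. In that fit 25 members were called higher and 1 lower in Yy1-/-, and 9 higher and 5 lower in Yy1-/- Smc3+/-. For Yy1-/- Smc3+/-, 4 members were called higher without its replicate 3, 3 without Yy1-/- replicate 1 and 2 without Yy1-/- replicate 2, in a fit that shares 1 estimate of the spread among the genotypes. Fitted with the Yy1+/+ libraries alone, Yy1-/- Smc3+/- had 6 members higher (Oas1a, Bst2, Isg15, Parp9, Ifi27 and Ifi27l2a) and 7 lower. The 5 lower calls became 3, Cmpk2, Isg20 and Ifi44, without any 1 of Yy1-/- Smc3+/- replicates 1, 3 and 4 or Yy1+/+ replicates 1 and 4. The median of Yy1-/- Smc3+/- was -0.036 without its replicate 1 and -0.082 without its replicate 2. Over all genes tested in these fits it was 0.022 and -0.024.

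**Figure D1:**
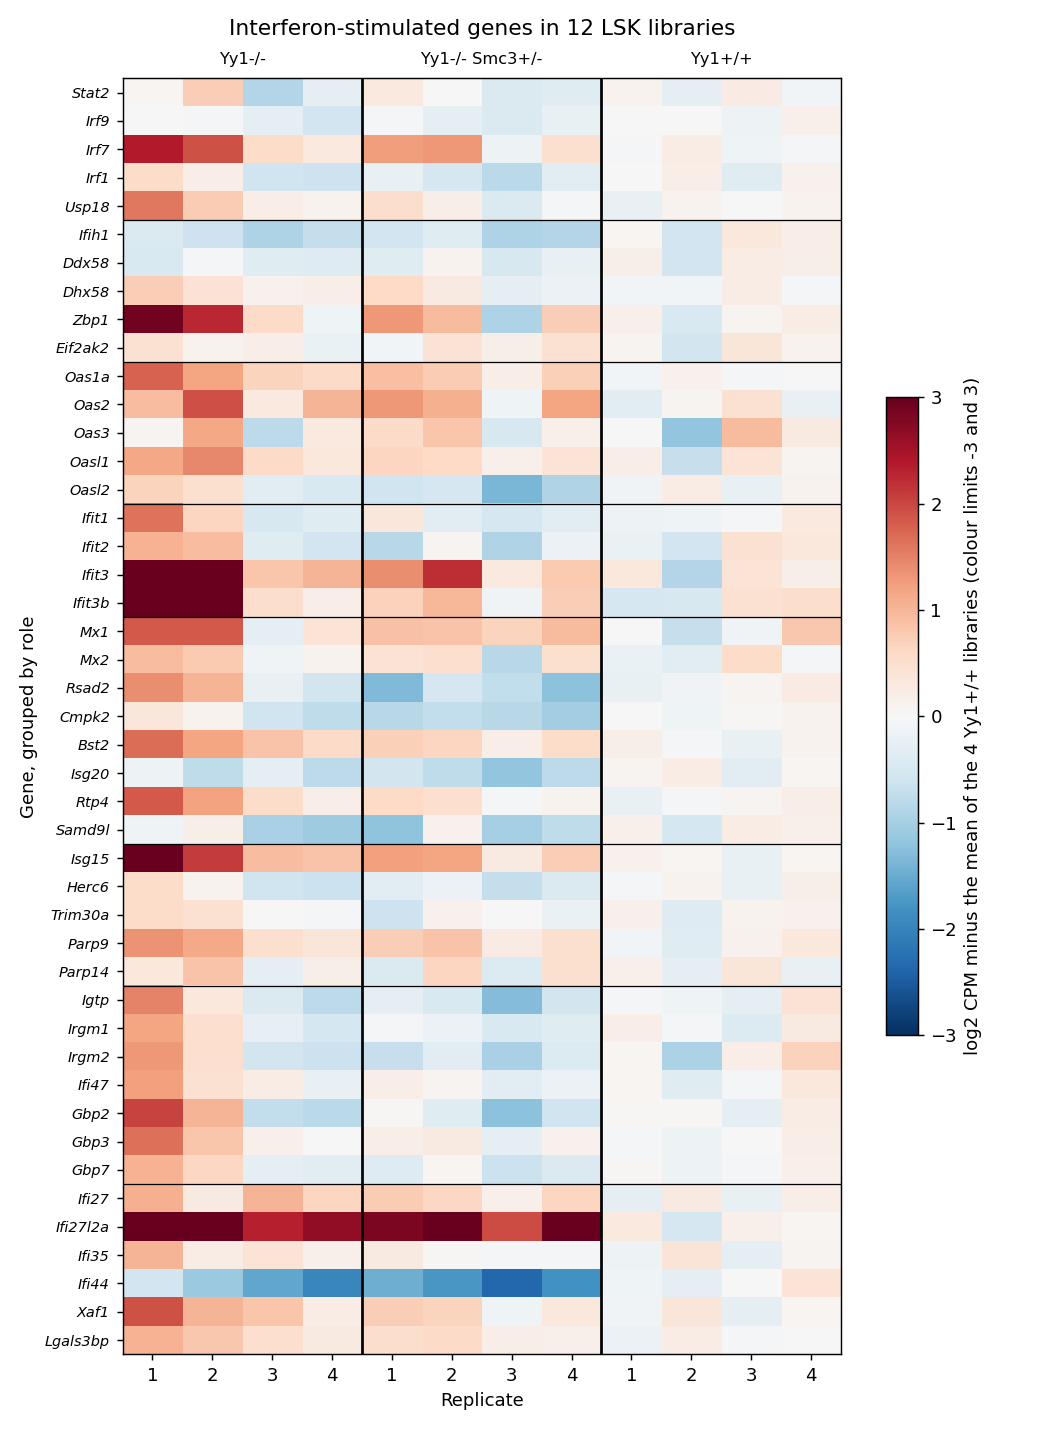
Each cell is 1 gene in 1 library, coloured by log2 CPM minus the mean of the 4 Yy1+/+ libraries, with Yy1-/- left, Yy1-/- Smc3+/- in the middle and Yy1+/+ right, and genes grouped by role. Yy1-/- replicates 1 and 2 hold most of the strong red cells, Ifi27l2a is red in all 8 deletion libraries and Ifi44 is blue in all 8.

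The promoters of the members were searched for the elements that interferon signalling acts on. RefSeq windows of 300 bases (build GRCm38.p6), from 250 bases before to 50 after the start, were found for 34 of the 45 members. Usp18, Dhx58, Zbp1, Oas2, Mx1, Mx2, Rtp4, Parp9, Parp14, Ifi27 and Ifi27l2a had no window and were not searched. Ifi27l2a had the smallest p of the members in Yy1-/-. The letters GAAANNGAA, a core of the interferon-stimulated response element, were searched on both strands and lay in the windows of 21 of the 34 members (61.8%) and of 9.76% of 27025 genes. TTCNNNGAA, the gamma activated site, which reads the same on both strands, lay in 10 of 34 (29.4%) and in 9.55% of genes. CCATNTT, a core of the site bound by YY1, was searched on both strands and lay in 4 of 34 (11.8%) and in 18.2% of genes. Among the windows printed, a GAAANNGAA match overlapped a TTCNNNGAA match in that of Bst2. Of the 21 members with GAAANNGAA, 5 were called higher and 2 lower in Yy1-/-, and of the 13 without it 4 were called higher and 0 lower, with a median log2 fold change of 0.38 in each set.

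The 6 windows below belong to called members with the smallest p among those with a window, 3 with GAAANNGAA and 3 without. Taken over both comparisons with Yy1+/+, calls in either direction occurred with and without the element. Each runs from 5′ to 3′ on the strand of the gene, with matches to GAAANNGAA, or to its reverse complement TTCNNTTTC, in capitals. A match is a run of letters and not evidence of binding. Where capitals run past 9 letters, 2 matches overlap.
Oas1a (chr5:120907476-120907775, minus strand): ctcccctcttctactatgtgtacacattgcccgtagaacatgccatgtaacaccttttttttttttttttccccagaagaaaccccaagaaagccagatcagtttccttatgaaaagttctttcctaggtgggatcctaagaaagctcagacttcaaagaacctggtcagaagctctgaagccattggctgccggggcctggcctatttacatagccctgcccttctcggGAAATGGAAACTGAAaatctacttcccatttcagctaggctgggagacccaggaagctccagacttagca
Bst2 (chr8:71537423-71537722, minus strand): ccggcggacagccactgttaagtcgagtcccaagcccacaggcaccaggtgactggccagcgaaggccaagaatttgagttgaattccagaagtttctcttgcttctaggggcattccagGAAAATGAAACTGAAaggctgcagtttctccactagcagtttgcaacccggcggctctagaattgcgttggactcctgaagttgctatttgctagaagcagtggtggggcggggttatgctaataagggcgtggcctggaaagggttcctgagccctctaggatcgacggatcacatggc
Ifi44 (chr3:151749861-151750160, minus strand): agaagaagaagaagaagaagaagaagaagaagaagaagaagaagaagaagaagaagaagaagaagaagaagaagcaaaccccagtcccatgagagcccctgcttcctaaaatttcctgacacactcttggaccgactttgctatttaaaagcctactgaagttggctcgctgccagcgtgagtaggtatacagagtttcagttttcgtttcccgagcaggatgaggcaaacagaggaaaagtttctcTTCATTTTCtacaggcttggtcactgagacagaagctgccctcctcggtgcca
Lgals3bp (chr11:118401910-118402209, minus strand): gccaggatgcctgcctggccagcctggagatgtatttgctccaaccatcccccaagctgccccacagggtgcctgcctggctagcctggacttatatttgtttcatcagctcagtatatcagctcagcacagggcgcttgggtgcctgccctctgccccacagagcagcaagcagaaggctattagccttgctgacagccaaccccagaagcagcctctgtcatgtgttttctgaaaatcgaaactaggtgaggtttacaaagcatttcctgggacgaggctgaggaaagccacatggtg
Isg20 (chr7:78913174-78913473, plus strand): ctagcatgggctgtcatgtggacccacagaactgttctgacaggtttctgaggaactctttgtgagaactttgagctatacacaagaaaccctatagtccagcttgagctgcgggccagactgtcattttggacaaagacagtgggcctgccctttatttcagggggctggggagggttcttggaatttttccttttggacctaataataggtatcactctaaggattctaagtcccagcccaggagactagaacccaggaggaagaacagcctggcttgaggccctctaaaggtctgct
Cmpk2 (chr12:26468965-26469264, plus strand): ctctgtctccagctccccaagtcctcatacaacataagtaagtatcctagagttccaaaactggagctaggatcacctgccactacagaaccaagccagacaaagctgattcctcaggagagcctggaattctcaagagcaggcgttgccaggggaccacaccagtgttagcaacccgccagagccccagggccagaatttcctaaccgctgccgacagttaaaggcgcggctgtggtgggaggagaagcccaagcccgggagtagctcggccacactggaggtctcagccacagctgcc
The Oas1a, Bst2 and Lgals3bp windows belong to members called higher in Yy1-/-. The Ifi44 window belongs to a member called lower in both genotypes, and the Isg20 and Cmpk2 windows to members called lower in Yy1-/- Smc3+/-. The Isg20 gene has 3 windows in the table, of which 1 is printed.

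Among the signalling and transcription factor members, Irf7 was called higher in Yy1-/- and the other 4 were not called. Irf7, the factor that amplifies production of interferon alpha, had 267, 193, 75.4 and 63.2 CPM in Yy1-/- libraries, 122, 128, 46.1 and 71.3 CPM in Yy1-/- Smc3+/- libraries and 49.1, 60.6, 47.3 and 49.99 CPM in Yy1+/+ libraries. All 4 Yy1-/- libraries were above all Yy1+/+ libraries, while Yy1-/- Smc3+/- replicate 3 lay below them. Its log2 fold change was 1.53 (95% interval 0.58 to 2.48, edgeR adjusted p = 0.0197) in Yy1-/- and 0.83 (95% interval -0.11 to 1.77, edgeR adjusted p = 0.185) in Yy1-/- Smc3+/-. Irf7 overlaps Phrf1 on the opposite strand, which averaged 80.3 CPM in Yy1-/- and 93.5 CPM in Yy1+/+ libraries, and the libraries did not mark strand.

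The partners of the response element complex did not pass the test. Stat2 had 69.6, 112, 36.7 and 54.4 CPM in Yy1-/- libraries, 82.1, 66.5, 49.97 and 52.2 CPM in Yy1-/- Smc3+/- libraries and 72.3, 55.5, 79.5 and 63.5 CPM in Yy1+/+ libraries. The genotypes overlapped, and Yy1-/- replicates 3 and 4 lay below every Yy1+/+ library while replicate 2 lay above. Irf9 had 126, 121, 103 and 84.5 CPM in Yy1-/- libraries, 119.6, 104, 91.8 and 107 CPM in Yy1-/- Smc3+/- libraries and 126, 124, 112 and 139 CPM in Yy1+/+ libraries, with the lowest value in Yy1-/- replicate 4. The log2 fold changes in Yy1-/- were 0.0087 (95% interval -0.61 to 0.63, edgeR adjusted p = 0.986) for Stat2 and -0.21 (95% interval -0.50 to 0.088, edgeR adjusted p = 0.275) for Irf9, whose exons overlap Rnf31 on the same strand. Irf1, a factor of the interferon gamma response, averaged 212 ± 86.5 CPM in Yy1-/-, 157 ± 26.3 CPM in Yy1-/- Smc3+/- and 218 ± 35.3 CPM in Yy1+/+ libraries. Usp18, which removes Isg15 from proteins and dampens the type I receptor, averaged 55.4 ± 28.5 CPM in Yy1-/-, 34.5 ± 9.55 CPM in Yy1-/- Smc3+/- and 32.3 ± 3.34 CPM in Yy1+/+ libraries, with a log2 fold change of 0.78 (95% interval 0.11 to 1.44, edgeR adjusted p = 0.074) in Yy1-/-.

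Of the sensors of foreign RNA and DNA, Zbp1 was called higher in Yy1-/-, and Ifih1 was called lower in both genotypes. Zbp1, a sensor of left-handed nucleic acid that can start cell death, had 116, 74.2, 23.1 and 14.3 CPM in Yy1-/- libraries, 38.2, 30.1, 8.10 and 26.0 CPM in Yy1-/- Smc3+/- libraries and 17.3, 11.3, 16.4 and 18.1 CPM in Yy1+/+ libraries. Yy1-/- replicates 1 and 2 were above every other library, and replicate 4 lay among the Yy1+/+ libraries. Its log2 fold change was 1.85 (95% interval 0.54 to 3.15, edgeR adjusted p = 0.0349) in Yy1-/- and 0.70 (95% interval -0.57 to 1.97, edgeR adjusted p = 0.42) in Yy1-/- Smc3+/-. Ifih1, which encodes the double-stranded RNA sensor MDA5, had 22.5, 19.8, 16.1 and 18.5 CPM in Yy1-/- libraries, 20.4, 23.4, 15.9 and 16.6 CPM in Yy1-/- Smc3+/- libraries and 31.8, 20.3, 37.7 and 34.9 CPM in Yy1+/+ libraries. Yy1+/+ replicates 1, 3 and 4 were above all 8 deletion libraries, and Yy1+/+ replicate 2 lay among these. Against Yy1+/+, the log2 fold change was -0.70 (95% interval -1.17 to -0.23, edgeR adjusted p = 0.0287) in Yy1-/- and -0.71 (95% interval -1.18 to -0.24, edgeR adjusted p = 0.0313) in Yy1-/- Smc3+/-. Ddx58, the RIG-I sensor, Dhx58, its regulator LGP2, and Eif2ak2, the kinase PKR that halts translation, were not called in either genotype, with log2 fold changes in Yy1-/- of -0.34 for Ddx58, 0.39 for Dhx58 and 0.13 for Eif2ak2.

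The 5 members of the OAS family are enzymes that make the second messenger for the nuclease RNase L, or relatives of them. Of these 5, 3 were called higher in Yy1-/-, where 14.5% of all tested genes were. Oas1a had 199.7, 134, 93.3 and 87.2 CPM in Yy1-/- libraries, 110.1, 99.0, 67.1 and 96.8 CPM in Yy1-/- Smc3+/- libraries and 55.6, 64.3, 57.4 and 57.7 CPM in Yy1+/+ libraries. All 8 deletion libraries were above all 4 Yy1+/+ libraries, with Yy1-/- replicate 1 highest and Yy1-/- Smc3+/- replicate 3 lowest among the deletion libraries. The test gave a log2 fold change of 1.13 (95% interval 0.61 to 1.65, edgeR adjusted p = 0.00445) in Yy1-/- and 0.67 (95% interval 0.15 to 1.18, edgeR adjusted p = 0.0584) in Yy1-/- Smc3+/-, where it missed the threshold. Reads of Oas1a are shared with its near copy Oas1g, whose coding sequence is 96.8% identical, and Oas1g was also called higher in Yy1-/- (log2 fold change 1.46, edgeR adjusted p = 0.0169).

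Oas2 had 26.7, 54.4, 17.2 and 28.6 CPM in Yy1-/- libraries, 34.6, 29.6, 13 and 32.3 CPM in Yy1-/- Smc3+/- libraries and 11.2, 15, 19.4 and 12.2 CPM in Yy1+/+ libraries. The second Yy1-/- library was highest, and the third lay among the Yy1+/+ libraries. Oasl1, which in mice restrains translation of Irf7, had 38.3, 46.7, 25.7 and 21.2 CPM in Yy1-/- libraries, 26.9, 26.0, 18.9 and 22.7 CPM in Yy1-/- Smc3+/- libraries and 19.5, 10.6, 22.9 and 18.2 CPM in Yy1+/+ libraries, and the Yy1-/- and Yy1+/+ libraries overlapped only through Yy1-/- replicate 4 and Yy1+/+ replicate 3. The log2 fold changes in Yy1-/- were 1.13 (95% interval 0.33 to 1.94, edgeR adjusted p = 0.0362) for Oas2 and 0.89 (95% interval 0.27 to 1.51, edgeR adjusted p = 0.0321) for Oasl1. Oasl2 went the other way in Yy1-/- Smc3+/-, with 187, 163, 93.9 and 85.1 CPM in Yy1-/- libraries, 77.5, 82.6, 45.4 and 62.8 CPM in Yy1-/- Smc3+/- libraries and 108, 137, 99.9 and 127 CPM in Yy1+/+ libraries. Its 4 Yy1-/- Smc3+/- libraries lay below all Yy1-/- and all Yy1+/+ libraries. Relative to Yy1+/+, the change in log2 units was -0.81 (95% interval -1.38 to -0.25, edgeR adjusted p = 0.0374) in Yy1-/- Smc3+/- and 0.17 (95% interval -0.39 to 0.73, edgeR adjusted p = 0.663) in Yy1-/-. Oas3 averaged 21.3 ± 11.7 CPM in Yy1-/-, 21.2 ± 7.70 CPM in Yy1-/- Smc3+/- and 18.9 ± 10.3 CPM in Yy1+/+ libraries and was not called.

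The IFIT family binds foreign RNA and blocks its translation. Of its 4 members 2 were called higher in Yy1-/-, where 14.5% of all tested genes were. Ifit3 had 128, 85.2, 11.5 and 13.1 CPM in Yy1-/- libraries, 17.1, 30.1, 7.89 and 11.1 CPM in Yy1-/- Smc3+/- libraries and 7.97, 3.47, 8.55 and 7.26 CPM in Yy1+/+ libraries. Its 2 highest libraries were Yy1-/- replicates 1 and 2, and the other 2 Yy1-/- libraries were still above every Yy1+/+ library. Ifit3b had 19.8, 23.1, 3.01 and 2.36 CPM in Yy1-/- libraries, 3.35, 4.14, 1.91 and 3.48 CPM in Yy1-/- Smc3+/- libraries and 1.43, 1.47, 2.84 and 3.0 CPM in Yy1+/+ libraries. Here Yy1-/- replicate 4 lay within the Yy1+/+ libraries. The log2 fold changes were 3.13 (95% interval 1.5 to 4.76, edgeR adjusted p = 0.00827) and 2.47 (95% interval 0.99 to 3.95, edgeR adjusted p = 0.0168) in Yy1-/-, and 1.28 (95% interval -0.25 to 2.82, edgeR adjusted p = 0.209) and 0.56 (95% interval -0.85 to 1.98, edgeR adjusted p = 0.571) in Yy1-/- Smc3+/-, for Ifit3 and Ifit3b in that order. The coding sequences of the pair are 99.1% identical, so how their reads were divided is uncertain and their 2 calls may not be independent. Ifit1 averaged 37.1 ± 26.6 CPM in Yy1-/-, 21.5 ± 6.14 CPM in Yy1-/- Smc3+/- and 24.4 ± 3.70 CPM in Yy1+/+ libraries and Ifit2 averaged 44 ± 23.7 CPM in Yy1-/-, 24.8 ± 8.50 CPM in Yy1-/- Smc3+/- and 33.8 ± 10.5 CPM in Yy1+/+ libraries, and neither was called.

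Of the 8 antiviral effectors, Bst2 and Rtp4 were called higher in Yy1-/-, and Cmpk2 and Isg20 were called lower in Yy1-/- Smc3+/-. Bst2 encodes tetherin, which holds budding virus at the cell surface and also marks plasmacytoid dendritic cells. Bst2 had 231, 163, 129.9 and 106 CPM in Yy1-/- libraries, 118, 113, 82.0 and 105 CPM in Yy1-/- Smc3+/- libraries and 81.0, 69.3, 61.6 and 77.0 CPM in Yy1+/+ libraries. All 8 deletion libraries were above all Yy1+/+ libraries. For this gene the log2 fold change was 1.12 (95% interval 0.66 to 1.59, edgeR adjusted p = 0.00229) in Yy1-/- and 0.53 (95% interval 0.073 to 0.99, edgeR adjusted p = 0.0854) in Yy1-/- Smc3+/-. In a list of plasmacytoid dendritic cell genes, 5 of 10 tested genes were called higher in Yy1-/-, where 14.5% of all tested genes were. These were Bst2 itself, Siglech, Pltp, Cox6a2 and Pacsin1. The rest were not called, with log2 fold changes of -0.19 for Tcf4, -0.36 for Runx2, -0.41 for Ccr9, -0.011 for Ly6d and 0.73 for Lair1. With Bst2 included, the list summed to between 335 and 660 CPM in Yy1-/- libraries. It summed to between 352 and 479 CPM in Yy1-/- Smc3+/- and between 287 and 339 CPM in Yy1+/+ libraries. The 660 CPM was that of Yy1-/- replicate 1, where Bst2, Pltp and Lair1 had 231, 189 and 108 CPM. Siglech had 0.559, 3.41, 7.86 and 3.84 CPM in Yy1-/- replicates 1 to 4, and between 0.180 and 0.363 CPM in Yy1+/+ libraries. The part of plasmacytoid dendritic cells was not tested. Rtp4, an interferon-induced protein that curbs some flaviviruses, had 185, 121, 75.8 and 59.5 CPM in Yy1-/- libraries, 78.8, 74.1, 50.3 and 56.1 CPM in Yy1-/- Smc3+/- libraries and 44.8, 49.6, 55.0 and 59.3 CPM in Yy1+/+ libraries. Its Yy1-/- libraries were all above the Yy1+/+ libraries, replicate 4 narrowly, and its log2 fold change was 1.08 (95% interval 0.43 to 1.72, edgeR adjusted p = 0.0165) in Yy1-/- and 0.31 (95% interval -0.32 to 0.95, edgeR adjusted p = 0.473) in Yy1-/- Smc3+/-.

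Cmpk2 is a mitochondrial nucleotide kinase whose gene lies beside Rsad2 on chromosome 12. Cmpk2 had 65.8, 56.5, 34.6 and 30.8 CPM in Yy1-/- libraries, 29.4, 31.1, 29.5 and 25.3 CPM in Yy1-/- Smc3+/- libraries and 52.1, 47.8, 53.6 and 56.3 CPM in Yy1+/+ libraries. Every Yy1-/- Smc3+/- library was below every Yy1+/+ library, and the Yy1-/- libraries divided into replicates 1 and 2 above and 3 and 4 below the Yy1+/+ range. Its log2 fold change was -0.86 (95% interval -1.34 to -0.39, edgeR adjusted p = 0.0133) in Yy1-/- Smc3+/- and -0.16 (95% interval -0.63 to 0.31, edgeR adjusted p = 0.613) in Yy1-/-. Rsad2, which encodes viperin, a maker of chain-terminating nucleotides, had 68.2, 52.7, 22.1 and 17.5 CPM in Yy1-/- libraries, 10.2, 18.2, 15.4 and 10.9 CPM in Yy1-/- Smc3+/- libraries and 22.0, 24.1, 27.2 and 30.8 CPM in Yy1+/+ libraries. All Yy1-/- Smc3+/- libraries were below all Yy1+/+ libraries, and Yy1-/- replicates 1 and 2 were above them, but Rsad2 did not pass the test (-0.93 (95% interval -1.76 to -0.10, edgeR adjusted p = 0.0966) in Yy1-/- Smc3+/-).

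Isg20, an exonuclease that degrades viral RNA, had 39.6, 25.7, 35.9 and 25.3 CPM in Yy1-/- libraries, 30.1, 25.8, 19.4 and 25.6 CPM in Yy1-/- Smc3+/- libraries and 46.3, 50.9, 34.5 and 45.6 CPM in Yy1+/+ libraries. All Yy1-/- Smc3+/- libraries were below all Yy1+/+ libraries, and Yy1-/- replicates 1 and 3 overlapped with them. The log2 fold change was -0.81 (95% interval -1.25 to -0.37, edgeR adjusted p = 0.012) in Yy1-/- Smc3+/- and -0.49 (95% interval -0.92 to -0.049, edgeR adjusted p = 0.0866) in Yy1-/-. Mx1 averaged 10.4 ± 6.55 CPM in Yy1-/-, 7.93 ± 0.617 CPM in Yy1-/- Smc3+/- and 4.75 ± 2.16 CPM in Yy1+/+ libraries, Mx2 averaged 5.85 ± 2.0 CPM in Yy1-/-, 4.88 ± 1.72 CPM in Yy1-/- Smc3+/- and 4.27 ± 1.27 CPM in Yy1+/+ libraries, and Samd9l averaged 44.7 ± 18.9 CPM in Yy1-/-, 38.7 ± 17.5 CPM in Yy1-/- Smc3+/- and 60.3 ± 13 CPM in Yy1+/+ libraries, and none of these was called. The MX proteins are dynamin-like GTPases that trap viral particles, and Samd9l restrains growth of blood progenitors.

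Isg15 and Parp9 were called higher in Yy1-/- among the members of protein modification. Isg15 is a ubiquitin-like protein that is attached to other proteins or secreted. Isg15 had 65.0, 35.6, 15.9 and 15.2 CPM in Yy1-/- libraries, 19.6, 18.9, 10.1 and 14 CPM in Yy1-/- Smc3+/- libraries and 9.06, 8.67, 7.11 and 8.61 CPM in Yy1+/+ libraries. All 8 deletion libraries were above all Yy1+/+ libraries, by far in Yy1-/- replicate 1 and narrowly in Yy1-/- Smc3+/- replicate 3. Its log2 fold change was 1.98 (95% interval 1.05 to 2.90, edgeR adjusted p = 0.00472) in Yy1-/- and 0.90 (95% interval 0.0039 to 1.80, edgeR adjusted p = 0.132) in Yy1-/- Smc3+/-. Parp9, which forms a complex with the ligase Dtx3l, had 190.5, 165, 104 and 95.8 CPM in Yy1-/- libraries, 125.2, 136, 88.8 and 105 CPM in Yy1-/- Smc3+/- libraries and 70.5, 58.1, 81.9 and 92.9 CPM in Yy1+/+ libraries, so that Yy1-/- replicate 4 cleared the highest Yy1+/+ library only narrowly. Against Yy1+/+, the log2 fold change was 0.87 (95% interval 0.37 to 1.38, edgeR adjusted p = 0.0141) in Yy1-/- and 0.58 (95% interval 0.082 to 1.09, edgeR adjusted p = 0.0844) in Yy1-/- Smc3+/-. Its exons overlap Dtx3l on the opposite strand, which averaged 126 CPM in Yy1-/- and 108 CPM in Yy1+/+ libraries. Herc6, the mouse ligase for Isg15, averaged 33.1 ± 13.4 CPM in Yy1-/-, 26.2 ± 3.95 CPM in Yy1-/- Smc3+/- and 34.8 ± 4.33 CPM in Yy1+/+ libraries, Trim30a averaged 75.5 ± 15.8 CPM in Yy1-/-, 56.8 ± 12.2 CPM in Yy1-/- Smc3+/- and 63.6 ± 10.6 CPM in Yy1+/+ libraries and Parp14 averaged 44.7 ± 14.8 CPM in Yy1-/-, 39.7 ± 15.2 CPM in Yy1-/- Smc3+/- and 36.2 ± 7.86 CPM in Yy1+/+ libraries, with no call in either genotype.

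The 7 GTPases of the IRG and GBP families, which attack the vacuoles of intracellular pathogens and are typical targets of interferon gamma, gave 0 edgeR calls in either genotype with all 12 libraries. Gbp3 was called higher in Yy1-/- by DESeq2, by the newer edgeR fit, and by edgeR without Yy1-/- replicate 3 or without replicate 4. Without the 3 libraries with more Yy1 reads, where Yy1-/- kept replicates 1 and 2 alone, edgeR called 6 of the 7 higher in Yy1-/-, all but Irgm2. The share of all tested genes called in that fit is not given here. Without Yy1-/- replicates 1 and 2, Igtp was called lower in Yy1-/- Smc3+/-. At an unadjusted p under 0.05 Gbp3 alone of the 7 passed in Yy1-/-, where 41.5% of all tested genes did, and 0 of the 7 passed in Yy1-/- Smc3+/-, where 37.3% did. Their levels in Yy1-/- depended on the library. Gbp2 had 455, 228, 67.0 and 64.4 CPM in Yy1-/- libraries, 114, 86.8, 47.7 and 73.6 CPM in Yy1-/- Smc3+/- libraries and 115, 114, 92.4 and 130.1 CPM in Yy1+/+ libraries. Yy1-/- replicates 1 and 2 were the highest of the 12 libraries, and replicates 3 and 4 lay below every Yy1+/+ library. Gbp3 had 314, 177, 111 and 99.5 CPM in Yy1-/- libraries, 114, 121, 82.6 and 109 CPM in Yy1-/- Smc3+/- libraries and 97.7, 90.1, 98.8 and 114 CPM in Yy1+/+ libraries, and Igtp had 427, 191, 113 and 88.5 CPM in Yy1-/- libraries, 126, 112, 61.5 and 104 CPM in Yy1-/- Smc3+/- libraries and 149, 139.8, 127 and 205.2 CPM in Yy1+/+ libraries. For Igtp, too, Yy1-/- replicates 3 and 4 lay below every Yy1+/+ library, while replicate 1 lay above and replicate 2 within the Yy1+/+ range. The log2 fold changes in Yy1-/- were 0.85 (95% interval -0.28 to 1.98, edgeR adjusted p = 0.243) for Gbp2, 0.81 (95% interval 0.16 to 1.45, edgeR adjusted p = 0.0569) for Gbp3 and 0.40 (95% interval -0.49 to 1.3, edgeR adjusted p = 0.496) for Igtp. Irgm1, Irgm2, Ifi47 and Gbp7 had log2 fold changes between 0.27 and 0.51 in Yy1-/- and between -0.69 and -0.06 in Yy1-/- Smc3+/-. Igtp and Irgm2 share exon sequence on the same strand.

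The largest log2 fold change among the members was that of Ifi27l2a, a small membrane protein gene at chr12:103442167-103443680 (GRCm38, GENCODE M21). Ifi27l2a had 304, 192, 29.5 and 37.4 CPM in Yy1-/- libraries, 41.9, 64.8, 23.0 and 55.2 CPM in Yy1-/- Smc3+/- libraries and 7.18, 4.14, 6.50 and 6.13 CPM in Yy1+/+ libraries. Each of the 8 deletion libraries was above each Yy1+/+ library, and Yy1-/- replicates 1 and 2 were highest. The test gave a log2 fold change of 4.56 (95% interval 3.02 to 6.10, edgeR adjusted p = 0.000766) in Yy1-/- and 2.95 (95% interval 1.51 to 4.38, edgeR adjusted p = 0.0069) in Yy1-/- Smc3+/-. Ifi27, its neighbour, which encodes a mitochondrial protein linked to apoptosis, had 235, 134.9, 227 and 176 CPM in Yy1-/- libraries, 189.8, 171, 124 and 173.4 CPM in Yy1-/- Smc3+/- libraries and 92.6, 136, 96.2 and 129 CPM in Yy1+/+ libraries. It was the 1 member whose mean over Yy1-/- replicates 1 and 2 did not exceed that over 3 and 4, with a ratio of 0.919. Relative to Yy1+/+, the change in log2 units was 0.77 (95% interval 0.33 to 1.20, edgeR adjusted p = 0.0124) in Yy1-/- and 0.54 (95% interval 0.11 to 0.97, edgeR adjusted p = 0.0662) in Yy1-/- Smc3+/-. Both genes lie 5.35 Mb before Yy1 on chromosome 12, and of 141 tested genes within 6 Mb of Yy1 31.2% were called in Yy1-/- and 19.9% in Yy1-/- Smc3+/-, against 30.1% and 24.7% of all tested genes.

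Ifi44, a cytoplasmic protein gene of the response at chr3:151730922-151749960, had the smallest adjusted p of the members called lower in either genotype. Ifi44 had 27.7, 19.2, 14 and 10.5 CPM in Yy1-/- libraries, 14.8, 12.3, 8.02 and 11.7 CPM in Yy1-/- Smc3+/- libraries and 37.7, 34.1, 41.3 and 54.4 CPM in Yy1+/+ libraries. All 8 deletion libraries were below all 4 Yy1+/+ libraries. For this gene the log2 fold change was -1.23 (95% interval -1.87 to -0.59, edgeR adjusted p = 0.00827) in Yy1-/- and -1.84 (95% interval -2.49 to -1.18, edgeR adjusted p = 0.00117) in Yy1-/- Smc3+/-. Within Yy1-/-, Ifi44 still had its highest values in replicates 1 and 2, as most members did.

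Xaf1, an antagonist of the apoptosis inhibitor XIAP, had 121, 64.8, 57.0 and 37.0 CPM in Yy1-/- libraries, 52.9, 50.3, 29.4 and 39.9 CPM in Yy1-/- Smc3+/- libraries and 29.4, 40.7, 26.0 and 33.2 CPM in Yy1+/+ libraries. The Yy1-/- libraries were above the Yy1+/+ libraries except replicate 4, which lay under Yy1+/+ replicate 2. Lgals3bp, a secreted scavenger receptor protein that binds galectin 3, had 717, 619, 499.8 and 421 CPM in Yy1-/- libraries, 503, 525, 405 and 391 CPM in Yy1-/- Smc3+/- libraries and 308, 406, 344 and 351 CPM in Yy1+/+ libraries. Here the 4 Yy1-/- libraries were above all Yy1+/+ libraries. The log2 fold changes in Yy1-/- were 1.11 (95% interval 0.42 to 1.80, edgeR adjusted p = 0.0194) for Xaf1 and 0.68 (95% interval 0.30 to 1.06, edgeR adjusted p = 0.0115) for Lgals3bp. Neither passed in Yy1-/- Smc3+/-, with 0.41 (95% interval -0.27 to 1.10, edgeR adjusted p = 0.366) and 0.37 (95% interval -0.0044 to 0.75, edgeR adjusted p = 0.139). Ifi35, which associates with Nmi, averaged 94.0 ± 28.4 CPM in Yy1-/-, 69.7 ± 7.20 CPM in Yy1-/- Smc3+/- and 67.9 ± 14.2 CPM in Yy1+/+ libraries and was not called in either genotype.

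**Figure D2:**
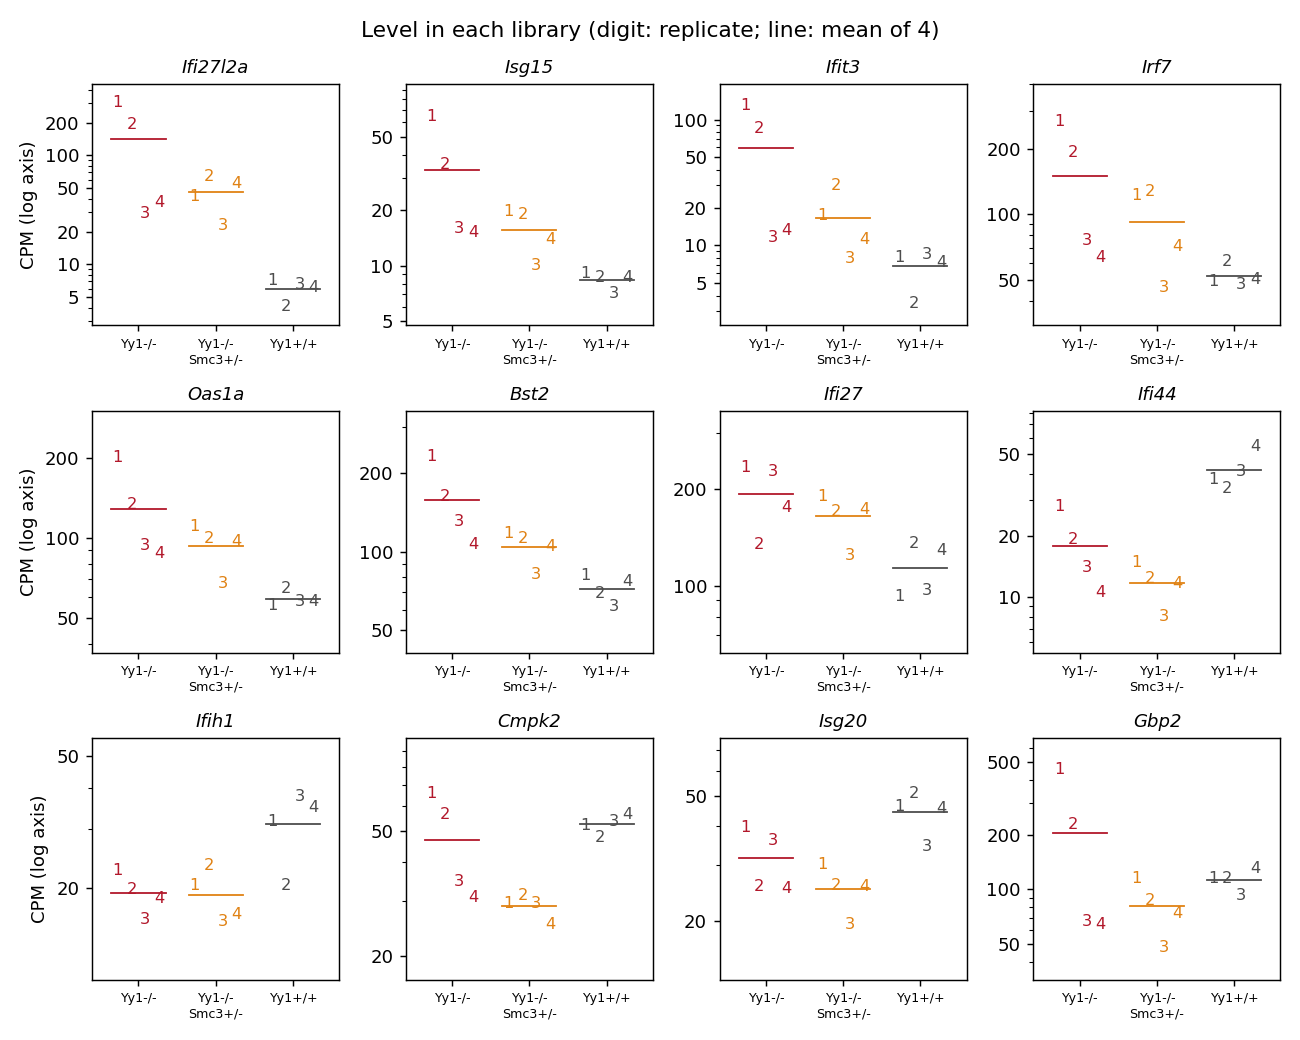
Levels of 12 members in each library, in CPM on log axes, with Yy1-/- left, Yy1-/- Smc3+/- in the middle and Yy1+/+ right, where digits are replicate numbers and lines the means of 4. Ifi27l2a, Isg15, Oas1a and Bst2 lie above Yy1+/+ in all 8 deletion libraries, Ifi44 lies below in all 8, and Gbp2 is split between Yy1-/- replicates 1 and 2 and replicates 3 and 4.

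**Figure D3:**
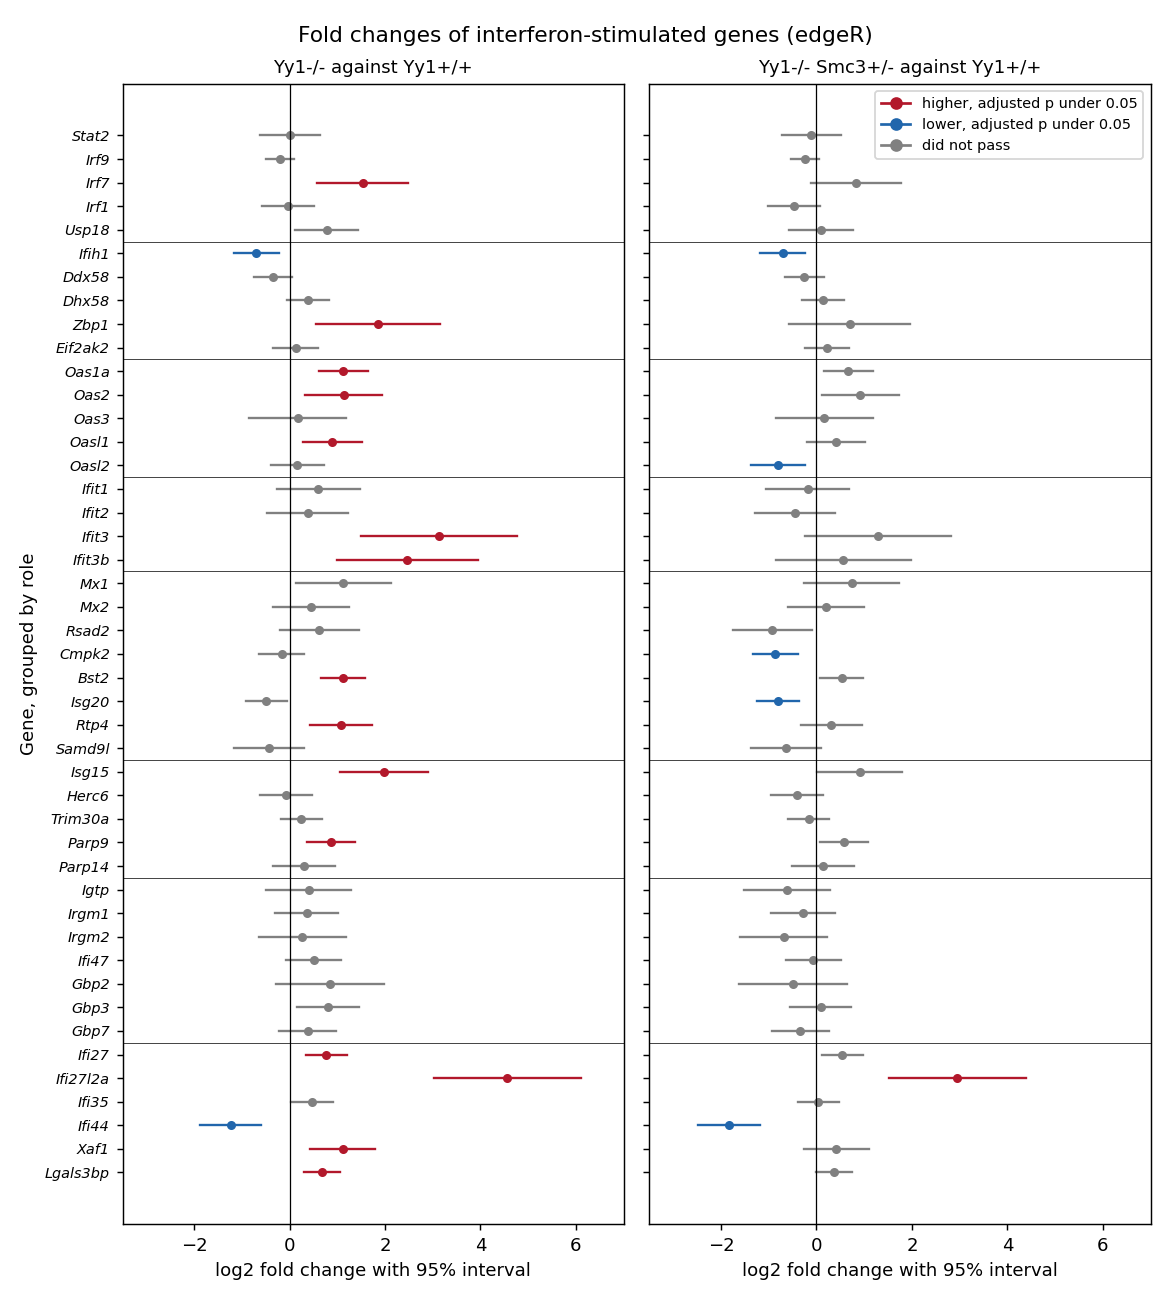
Log2 fold changes with 95% intervals from edgeR, Yy1-/- against Yy1+/+ on the left and Yy1-/- Smc3+/- against Yy1+/+ on the right, red for members called higher, blue for members called lower and grey for the rest. The left side holds 15 red and 2 blue members, and the right side 1 red and 5 blue.

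Leaving out Yy1-/- replicates 1 and 2, which leaves 2 libraries of that genotype, ended 10 of the 17 calls in Yy1-/-. Without Yy1-/- replicates 1 and 2, Ifi27l2a (log2 fold change 2.45, adjusted p = 0.00184), Isg15 (0.86, adjusted p = 0.0489), Bst2 (0.68, adjusted p = 0.0194), Oas1a (0.59, adjusted p = 0.0388) and Ifi27 (0.80, adjusted p = 0.0219) were still called higher. Ifi44 (-1.80, adjusted p = 0.00324) and Ifih1 (-0.88, adjusted p = 0.0489) were still called lower, and Irf1, Cmpk2 and Herc6 were then also called lower. The other 10 missed the threshold in this smaller comparison, among them Irf7, Ifit3, Rtp4, Parp9 and Lgals3bp, whose 4 Yy1-/- libraries were all above the Yy1+/+ libraries. Their values were 0.39, adjusted p = 0.449 for Irf7, 0.21, adjusted p = 0.791 for Zbp1, 0.82, adjusted p = 0.277 for Ifit3, 0.27, adjusted p = 0.73 for Ifit3b and 0.34, adjusted p = 0.274 for Rtp4. The remaining values were 0.63, adjusted p = 0.277 for Oas2, 0.37, adjusted p = 0.408 for Oasl1, 0.36, adjusted p = 0.248 for Parp9, 0.51, adjusted p = 0.214 for Xaf1 and 0.35, adjusted p = 0.16 for Lgals3bp. By the libraries themselves, replicates 1 and 2 both exceeded every Yy1+/+ library for 30 members, and for 21.6% of all tested genes. Replicates 3 and 4 both exceeded every Yy1+/+ library for 10 members, and for 22.0% of all tested genes, and both lay below every Yy1+/+ library for 13 members, and for 23.7% of all tested genes. Those 13 were Stat2, Irf9, Irf1, Ifih1, Oasl2, Ifit1, Cmpk2, Samd9l, Herc6, Igtp, Gbp2, Gbp7 and Ifi44.

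Leaving out any 1 library ended some calls. In Yy1-/-, the calls of Oas1a, Ifit3, Bst2, Isg15, Ifi27, Ifi27l2a, Lgals3bp and Ifi44 remained whichever library was left out. Irf7, Zbp1, Oas2, Oasl1, Ifit3b, Rtp4, Parp9 and Xaf1 missed the threshold without Yy1-/- replicate 1, and Zbp1, Oas2, Oasl1 and Ifit3b also without replicate 2. Yy1+/+ libraries mattered as well, since Irf7 was lost without Yy1+/+ replicate 1, 3 or 4, Zbp1 without any 1 of them, Oas2 and Oasl1 without replicate 1, 2 or 4, Ifit3b without replicate 1 and Xaf1 without replicate 1 or 3. Oas2 was lost also when Yy1-/- replicate 4, or replicate 2 of Yy1-/- Smc3+/-, was left out. Of the Yy1-/- Smc3+/- calls, Ifi27l2a, Ifi44, Cmpk2 and Isg20 remained called whichever library was left out. Ifih1 was lost without Yy1-/- Smc3+/- replicate 1, 3 or 4 or Yy1+/+ replicate 1, 3 or 4, and Oasl2 without Yy1-/- Smc3+/- replicate 1, 3 or 4 or Yy1+/+ replicate 1, 2 or 4.

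The spread between libraries of 1 genotype was widest in Yy1-/-. The median SD of log2 CPM over the members was 0.62 in Yy1-/-, 0.33 in Yy1-/- Smc3+/- and 0.28 in Yy1+/+, against 0.40, 0.33 and 0.35 over all tested genes in the same order of genotypes. Ifit3 had the widest spread, with an SD of 1.8 in Yy1-/-, and 9 members exceeded an SD of 1 there, with none in the other genotypes. The share of all tested genes above that SD is not given here. Replicate 1 was the highest Yy1-/- library for 36 members and replicate 2 for 9, and for 28.5% and 25.4% of all tested genes. Replicate 4 was the lowest for 32 members, and for 18.9% of all tested genes. In Yy1-/- Smc3+/-, replicate 3 was the lowest for 37 members, and for 28.0% of all tested genes. Its replicates 1 and 2 were the highest for 22 and 21 members, and for 27.0% and 23.1% of all tested genes.

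Counted library by library, 36, 33, 16 and 11 of the 45 members were above the highest Yy1+/+ library in Yy1-/- replicates 1 to 4, where between 30.4% and 32.9% of all tested genes were. The numbers for Yy1-/- Smc3+/- replicates 1 to 4 were 21, 21, 4 and 14, where between 29.0% and 34.1% of all tested genes were. The members' median log2 difference from the Yy1+/+ mean was 1.07, 0.75, -0.11 and -0.05 in Yy1-/- replicates 1 to 4. It was 0.26, 0.17, -0.42 and -0.046 in the Yy1-/- Smc3+/- libraries, and between -0.13 and 0.16 in Yy1+/+ libraries. The median of the monocyte, macrophage and dendritic cell list was 4.05, 3.26, 1.1 and 1.53 in Yy1-/- replicates 1 to 4, and between 1.31 and 1.98 in Yy1-/- Smc3+/- libraries. The part of these genes in the members' values was not tested. Within Yy1-/-, the libraries with the highest member levels, replicates 1 and 2, had the fewest Yy1 reads, at 0.407 and 0.996 CPM. Yy1-/- Smc3+/- replicates 1, 2 and 4 had similar Yy1 levels of 0.772, 0.795 and 0.944 CPM, with member medians of 0.26, 0.17 and -0.046. Yy1-/- Smc3+/- replicate 3, with 4.45 CPM of Yy1, had the member median of -0.42. The part of residual Yy1 was not tested.

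**Figure D4:**
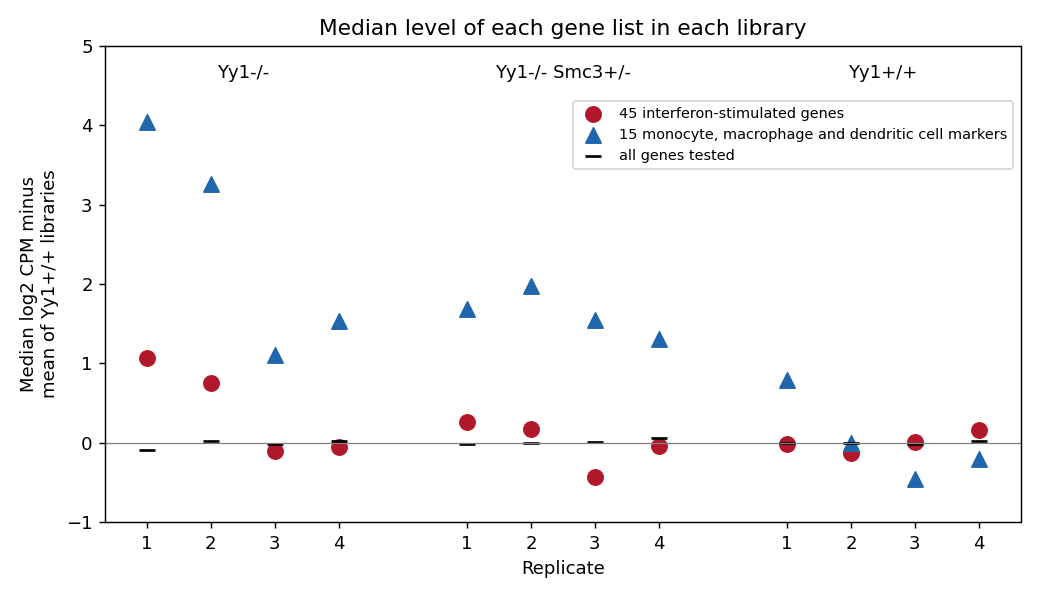
Median log2 CPM minus the mean of the Yy1+/+ libraries for the 45 members (red circles), 15 monocyte, macrophage and dendritic cell markers (blue triangles) and all tested genes (black bars), by library, with Yy1-/- left, Yy1-/- Smc3+/- in the middle and Yy1+/+ right. The red circles are highest in Yy1-/- replicates 1 and 2, at 1.07 and 0.75, where the blue triangles stand at 4.05 and 3.26.

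The members tended to lie lower in Yy1-/- Smc3+/- than in Yy1-/- cells, without a call. Of the 45 log2 fold changes 43 were below 0, where 49.7% of all tested genes were, with a median of -0.57 against 0.00084 over all tested genes. No member passed in edgeR, where 0.03% of all tested genes were called higher and 0.00601% lower, 0.036% in either direction. At an unadjusted p under 0.05, 16 members passed, where 5.3% of all tested genes did, and DESeq2 called 1 member, Rsad2, lower. The smallest edgeR adjusted p was 0.797, for Rsad2, with a log2 fold change of -1.55 (95% interval -2.40 to -0.71, edgeR adjusted p = 0.797). The libraries of the 2 genotypes overlapped for every member except Oasl2, which was lower in all Yy1-/- Smc3+/- libraries, where 0.883% of all tested genes were. The log2 fold changes of Ifit3b and Ifit3 were -1.91 (95% interval -3.36 to -0.46, edgeR adjusted p = 0.904) and -1.85 (95% interval -3.40 to -0.30, edgeR adjusted p = 0.904). The difference depended on which libraries were compared. Without Yy1-/- replicates 1 and 2 the median was 0.056, against 0.0032 over all genes tested in that fit. Without the 3 libraries with more Yy1 reads, Yy1-/- kept replicates 1 and 2 alone. In that fit 12 members were called lower in Yy1-/- Smc3+/-, namely Zbp1, Oasl2, Ifit3, Ifit3b, Rsad2, Cmpk2, Rtp4, Isg15, Gbp2, Gbp3, Gbp7 and Ifi27l2a. The share of all tested genes called in that fit is not given here, so this count does not show whether the members stood out.

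Levels can be set against each other between genes in TPM, a unit of transcript abundance that corrects for gene length. In Yy1-/- libraries Ifi27l2a had the highest mean, at 963 ± 844 TPM, with Bst2 at 365 ± 93.6 and Ifi27 at 353 ± 67.9 TPM within its SD (SD, n = 4). The mean came from replicates 1 and 2, where Ifi27l2a stood at 1905 and 1444 TPM, while in replicates 3 and 4 it stood at 209 and 294 TPM, below Ifi27 at 411 and 359 TPM. In Yy1-/- Smc3+/- libraries Ifi27l2a also had the highest mean, at 352 ± 152 TPM, within the SD of Ifi27 at 322 ± 61.9 TPM. In Yy1+/+ libraries the order began with Ifi27 at 245 ± 35.7, Lgals3bp at 239 ± 18 and Ifi47 at 238 ± 62.8 TPM, which did not differ beyond their spread, and Ifi27l2a stood at 53.6 ± 15.5 TPM. The least abundant members in Yy1+/+ were Ifit3b, Mx1 and Mx2, at 1.82 ± 0.841, 2.82 ± 1.42 and 2.85 ± 1.1 TPM.

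The interferon genes themselves were close to silent. Of 21 interferon genes 16, among them Ifnb1, had a count of 0 in every library, which allows a level of up to between 0.0474 and 0.0776 CPM by library (3 counts, counting error only). Another 4 had at most 19.8 counts in any library and were not tested. Ifng was tested and not called, at 0.466 ± 0.594 CPM in Yy1-/-, 0.835 ± 0.965 CPM in Yy1-/- Smc3+/- and 0.0720 ± 0.0910 CPM in Yy1+/+ libraries. Of the receptors, kinases and STATs, 1 of 10 tested genes was called higher and 2 lower in each deletion genotype, where 14.5% of all tested genes were called higher and 15.6% lower in Yy1-/-, and 11.3% higher and 13.4% lower in Yy1-/- Smc3+/-. Jak1 fell in both and averaged 265 ± 29.2 CPM in Yy1-/-, 269 ± 55.8 CPM in Yy1-/- Smc3+/- and 460.1 ± 19.3 CPM in Yy1+/+ libraries. Jak2, the kinase of the interferon gamma receptor, also fell in both, with log2 fold changes of -0.73 in Yy1-/- and -0.71 in Yy1-/- Smc3+/- (edgeR adjusted p = 0.00411 and 0.00571). Ifngr2 rose in both (1.04 and 0.65, edgeR adjusted p = 0.00253 and 0.0302). Ifnar1, Ifnar2, Ifngr1 and Tyk2 did not pass.

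Cgas, Tmem173 and Myd88, which act in nucleic acid sensing upstream of interferon, were called higher in both genotypes. Of 18 tested adaptors and kinases 6 were called higher and 2 lower in Yy1-/-, and 5 higher and 0 lower in Yy1-/- Smc3+/-. Of all tested genes 14.5% were called higher and 15.6% lower in Yy1-/-, and 11.3% higher and 13.4% lower in Yy1-/- Smc3+/-. Cgas, the DNA sensor that makes the messenger for STING, rose in both genotypes and averaged 68.4 ± 7.17 CPM in Yy1-/-, 77.5 ± 10.4 CPM in Yy1-/- Smc3+/- and 37.7 ± 4.90 CPM in Yy1+/+ libraries. Tmem173, which encodes STING, rose in both genotypes and averaged 233 ± 14 CPM in Yy1-/-, 215 ± 30.3 CPM in Yy1-/- Smc3+/- and 139 ± 14 CPM in Yy1+/+ libraries. Myd88, the adaptor of most Toll-like receptors, rose in both genotypes and averaged 217 ± 44.8 CPM in Yy1-/-, 171 ± 11.3 CPM in Yy1-/- Smc3+/- and 97.7 ± 15.7 CPM in Yy1+/+ libraries, and Unc93b1, which carries Toll-like receptors to endosomes, had log2 fold changes of 1.5 and 0.99 in the same 2 genotypes. Of 18 genes that restrain the pathway 6 were called higher and 0 lower in Yy1-/-, and 3 higher and 0 lower in Yy1-/- Smc3+/-, beside the same shares of all tested genes. They included Rnaseh2b, a subunit of the nuclease that clears RNA from DNA (log2 fold changes 1.09 and 1.06, edgeR adjusted p = 0.00027 and 0.000387), and the DNA exonuclease Trex1 in Yy1-/- (1.24, edgeR adjusted p = 0.00739). Among 9 other IRF genes and partners, Irf2, a repressor at response elements, fell in both genotypes, and Irf2bp1, a corepressor of Irf2, fell in Yy1-/-. Irf2 averaged 37.5 ± 6.95 CPM in Yy1-/-, 43.1 ± 8.59 CPM in Yy1-/- Smc3+/- and 73.2 ± 14.3 CPM in Yy1+/+ libraries. Irf4 was called higher in Yy1-/- Smc3+/-.

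A wider list of interferon-induced genes outside the 45 held calls in both directions. Of 69 tested, 15 were called higher and 5 lower in Yy1-/-, where 14.5% of all tested genes were called higher and 15.6% lower. In Yy1-/- Smc3+/- cells 6 were called higher and 12 lower, close to the 11.3% and 13.4% over all tested genes. Mlkl, the effector of necroptosis, rose in both genotypes and averaged 177 ± 49.9 CPM in Yy1-/-, 134 ± 16.7 CPM in Yy1-/- Smc3+/- and 50.7 ± 6.66 CPM in Yy1+/+ libraries. Slfn1 and Ifi207 rose in both genotypes, with log2 fold changes of 5.04 and 4.78 in Yy1-/-, and Ifitm1 rose by 1.15. Uba7, the enzyme that activates Isg15 for attachment, fell in both genotypes and averaged 132 ± 20.5 CPM in Yy1-/-, 135.5 ± 32.9 CPM in Yy1-/- Smc3+/- and 268 ± 17.9 CPM in Yy1+/+ libraries. Ube2l6, which passes Isg15 on, fell as well (-1.01 and -1.37, edgeR adjusted p = 0.0276 and 0.00778), as did Pml and Tap2, a nuclear body protein and a peptide transporter. Transcripts of the Isg15 activating and conjugating enzymes were lower in the Yy1-/- libraries, in which Isg15 itself was higher. Of the genes called in Yy1-/- Smc3+/-, Trim30d was lower (-1.67, edgeR adjusted p = 0.00411).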

How the data were processed

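Libraries of sorted LSK cells were made with SMART-Seq v4, per the labels' protocols, a kit that does not mark strand. Per the submitters' processing notes, STAR 2.5.2b and RSEM 1.3.0 were used with build mm10. The deposited tables give, per gene, an expected count, TPM and FPKM made by the authors, with a gene length and effective length. FPKM was not used. Gene identifiers were matched to GENCODE M21 (55094 exactly, 300 by another version, 93 not).

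Expected counts were rounded and tested with the quasi-likelihood test of edgeR 4.0.16 (R 4.3.3; TMM scaling; minimum count 10, minimum total 15; 16649 genes; 12 libraries of 3 genotypes in 1 fit, genotype as the factor, no pairing in the labels), with Benjamini-Hochberg adjustment over all tested genes. Intervals and p-values cover the spread between libraries only. The default fit of this edgeR version was kept, and its newer option was an alternative chosen after seeing the data, as was leaving out Yy1-/- replicates 1 and 2. Other alternatives were RLE size factors, filters, DESeq2 1.42.0, limma 3.58.1 on log2(TPM + 1), the 2 genotypes compared alone, each library left out in turn, and the libraries with residual Yy1 reads left out. Log2 CPM used a prior count of 2. Depth was 38671354 to 69086104 summed counts per library.

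The 45 members, the role lists, the pathway lists and the cell marker lists were chosen with earlier results of these data known. Every library's value is given for called members, Stat2, Irf7, Irf9 and Isg15, and for Rsad2, Gbp2, Gbp3 and Igtp, which were chosen after their values were seen. Of the pathway lists, up to 4 called genes with the smallest p were named, with the receptors, Jak1 and Tyk2. Some genes of these lists are not reported here. Genes added beyond this rule, chosen after their values were seen, were Jak2, Irf2bp1, Irf4, Ube2l6, Pml, Tap2, Ifitm1 and Trim30d.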

Additional observations from a re-analysis of the deposited data

Results flagged for a closer look

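Of 135 groups of 4 libraries, 1 member in 1 genotype each, 5 had a single library far from the other 3, where chance alone gives about 1 in 20. Of these libraries 3 were Yy1+/+ replicate 2. There, Ddx58 stood at 55.3 CPM, against 91.6 to 95.5 CPM in the other Yy1+/+ libraries. Samd9l stood at 40.9 CPM there, against 65.6 to 68.9 CPM in the others. Trim30a stood at 47.9 CPM there, against 67.6 to 69.98 CPM in the others. Dhx58 was high in Yy1+/+ replicate 3, at 58.0 CPM, against 47.0 to 48.6 CPM in the others. Mx2 was low in Yy1-/- Smc3+/- replicate 3, at 2.30 CPM, against 5.62 to 5.85 CPM in the others. None of these 5 members was called in edgeR with all 12 libraries. Without Yy1+/+ replicate 2, Ddx58 was called lower in Yy1-/- against Yy1+/+, and without Yy1-/- Smc3+/- replicate 2, Samd9l was called lower in Yy1-/- Smc3+/- against Yy1+/+.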

How the results depend on the processing

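The 23 called member values kept their direction in all 483 recomputations, and 72 of these missed the threshold. Members called in every alternative were Oas1a, Bst2, Isg15, Ifi27l2a and Ifi44 in Yy1-/-, and Ifi27l2a, Ifi44, Cmpk2 and Isg20 in Yy1-/- Smc3+/-. RLE size factors, no filter and a minimum count of 50 left every count of calls within 1.5 times. In Yy1-/- against Yy1+/+, 15 members were called higher and 2 lower. Leaving out 1 library gave 7 to 17 higher and 1 to 3 lower. Leaving out the libraries with residual Yy1 reads, which kept Yy1-/- replicates 1 and 2 alone, gave 25 and 1. The test by limma on log2(TPM + 1) gave 6 and 4. Leaving out Yy1-/- replicates 1 and 2 gave 5 and 5 with a median of -0.071, against -0.067 over all genes tested. In Yy1-/- Smc3+/- against Yy1+/+, 1 member was called higher and 5 lower. Leaving out 1 library gave 1 to 4 higher and 3 to 6 lower, with the median between -0.082 and 0.20. The 2 genotypes alone gave 6 higher, no residual Yy1 9, DESeq2 3, the newer fit 2, limma 8 lower with a median of -0.12, and no Yy1-/- replicates 1 and 2 gave 6 and 8. In Yy1-/- Smc3+/- against Yy1-/-, leaving out residual Yy1 gave 12 lower, DESeq2 1 lower, and no Yy1-/- replicates 1 and 2 a median of 0.056. The log2(TPM + 1) scale moved the median of all genes to -0.18 in Yy1-/- and -0.11 in Yy1-/- Smc3+/- against Yy1+/+, and fewer libraries or another estimate of spread set the other alternatives. The shares of all tested genes called in the alternatives are not given here. The cause of each change was not tested. With 4 libraries a genotype, a member that missed the threshold is not shown to be unchanged. No paired analysis was possible because the labels give no replicate numbers shared between genotypes.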
